A study of Homo sapiens with 48 samples.

Results

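Many of the genes described here supply amino acids to stressed cells, whereas others are regulators, stress effectors or secreted and surface proteins. The set is 36 genes listed by symbol as ATF4 itself, its partner factors and targets of the factor. They were taken from 60610 genes in a count table of stimulated HEK293 cells. Membership was by gene symbol and no measured value entered the rule, but the list was chosen with earlier results of these data known. All 36 symbols were found, and all 36 passed the filter on low counts that left 19626 genes for the tests. Transfer RNA synthetases, which ATF4 also drives, were not included. By role there were 7 regulators, 5 stress effectors and feedback genes, 7 enzymes of serine synthesis and the folate pathway, 7 other enzymes of amino acid and carbon metabolism, 8 amino acid transporters and 2 secreted or surface proteins.

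HEK293 is a human embryonic kidney line. The cells were a clone that stably carried an expression plasmid for the angiotensin II type 1 receptor (AT1R), isolated by limiting dilution under puromycin with losartan present, so every group, control included, comes from a single clone and shares that selection. Serum was removed before stimulation. Cells then received 1 nM angiotensin II (AII), 10 µg/L epidermal growth factor (EGF), both together, or neither, for 6 h or 24 h. Polyadenylated RNA was sequenced in 6 libraries for each of the 8 groups. The labels do not say that libraries came from separate cultures, so the p-values measure the spread between these libraries, which may be technical.

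Of the 48 libraries, 38 were used. The counts of 4 pairs of libraries, 3 of them with different labels, differed by less than sampling noise, and all 8 were left out, the pair with the same label included. The other 2, labelled AII 6 h and AII+EGF 6 h, were left out because their labels were in doubt. They are called replicate 6 of their groups here, by a numbering that is not in the labels. SLC7A5, a member, stood at 264 CPM (counts-per-million, scaled by TMM) in the first and 121 CPM in the second, whereas the remaining AII 6 h libraries ran from 137 to 159 CPM and the remaining AII+EGF 6 h libraries from 261 to 296 CPM. This left 4 control, 5 AII, 3 EGF and 4 AII+EGF libraries at 6 h, and 6 control, 5 AII, 5 EGF and 6 AII+EGF libraries at 24 h. At 6 h the title runs, the number series in the library titles, were then uneven over the groups. AII and joint replicates 1 and 2 came from a run with no control or EGF library left. Control replicate 6 came from a run with no stimulated library left. Total counts ran from 17.8 to 30 M per library (mean 22.3 ± 3.02 M, SD, n = 38). The 3 EGF 6 h libraries were the deepest, at 28 to 30 M, and the part of depth in the EGF 6 h results was not tested. NEFL, NEFM and VIM, neurofilament and vimentin genes which HEK293 cells are known to express, were abundant, whereas PAX2, a kidney marker, reached at most 3.9 CPM. INA, the remaining HEK293 marker looked at, was called 2.06-fold higher under EGF at 6 h (adjusted p = 5.02e-05). PAX2 was 2.8-fold higher in that comparison (adjusted p = 0.00251) without a call, and NEFL, NEFM and VIM were not called there. With both agents at 6 h INA was called a further 1.59-fold above EGF alone (adjusted p = 0.00704). PAX2, NEFL, NEFM and VIM were not called between those 2 groups. Of 6 markers of other cell types, the blood cell marker PTPRC had at most 2 counts in a library, the endothelial marker PECAM1 8 and the liver marker ALB 9, and the tubule marker UMOD had 0. The other 2, the fibroblast collagens COL1A1 and COL3A1, were expressed. The summed level of the 6 ran from 28.7 to 35.8 CPM under AII at 6 h, above the 6 h controls (23 to 25.9 CPM), the EGF libraries (22.1 to 24.2 CPM) and the joint libraries (19.2 to 25.1 CPM). COL3A1 was 1.84-fold higher under AII at 6 h (adjusted p = 0.000354) and lower with EGF than with AII (log2 -1.07, adjusted p = 6.38e-05), whereas COL1A1 was called in neither (log2 0.06 and -0.05). The 24 h controls ranged from 25 to 62.6 CPM in this sum, and all groups of that time overlapped. The part of collagen-expressing cells in the AII results at 6 h was not tested.

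ATF4 is the effector of the integrated stress response. When kinases that sense amino acid shortage, unfolded proteins or other strain phosphorylate the initiation factor eIF2, bulk translation falls while the ATF4 messenger is translated better, so ATF4 activity is set largely by translation and need not show in its messenger level. ATF4 then switches on transporters and enzymes that restore amino acids, the serine and folate pathways, and, under lasting strain, genes of cell death. It binds DNA as a dimer with C/EBP proteins at composite sites of a C/EBP and a cyclic AMP response element. Growth signals through mTORC1 are known to raise ATF4 as well.

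RefSeq promoter windows (250 bases before to 50 after each annotated start, build GRCh38.p14) were available for 28 of the 36 members. They were searched on both strands for TGATGNAA, a common spelling of the C/EBP-ATF site, whose reverse complement is TTNCATCA. The letters occurred in a window of 9 of those 28 members, which is 32.1%, and in 1217 of all 27305 genes with a window, which is 4.46%. The members were listed as targets or partners of ATF4, so the difference does not test the list. Windows per gene also differed, with 48 for the 28 members and 35116 for the 27305 genes. The 9 stretches are shown because they are the letters that these members share, with the 8-base match in capitals and up to 10 bases on either side, each read 5′ to 3′ on the strand of its gene.
ATF3: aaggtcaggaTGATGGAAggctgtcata
CEBPG: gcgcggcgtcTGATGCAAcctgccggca
CHAC1: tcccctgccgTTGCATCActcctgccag
MTHFD1L: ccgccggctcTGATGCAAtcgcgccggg
ASNS: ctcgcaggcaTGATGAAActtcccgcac
SLC7A1: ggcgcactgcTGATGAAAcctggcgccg
SLC1A4: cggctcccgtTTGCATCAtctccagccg
SLC1A5: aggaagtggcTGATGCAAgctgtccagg
SLC3A2: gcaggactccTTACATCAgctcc

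The CHAC1 stretch lies at chr15:40953252-40953279 and the ASNS stretch at chr7:97872459-97872486, on the minus strand. Those of SLC1A4 and CEBPG are at chr2:64989382-64989409 and chr19:33374061-33374088, both on the plus strand. MTHFD1L has its match at chr6:150866347-150866374 on the plus strand, where 3 windows of that gene overlap. A match is a description of the letters, and no match says only that these letters were absent from the window searched. Among the 9 genes, MTHFD1L, SLC1A4, SLC7A1, CEBPG, CHAC1 and ASNS changed in at least 1 comparison with control, whereas ATF3, SLC3A2 and SLC1A5 passed in none. Over all 36 members, with a match or without, 24 changed in at least 1 comparison. Whether a match goes with a change was not tested.

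The first question was which members each stimulus moved against the control of the same time. A member was called changed at a Benjamini-Hochberg adjusted p under 0.01 in edgeR's quasi-likelihood test over all tested genes, with at least a 1.5-fold difference and a mean above 5 CPM. At 6 h, AII raised 9 members and lowered 0, against 0.459% of all genes called higher and 0.0102% lower. EGF at 6 h raised 3 and lowered 0, against 1.62% and 0.321% of all genes. Both agents together raised 14 and lowered 2 at 6 h, but 6.45% of all genes were called higher in that comparison and 5.53% lower. At 24 h AII changed 0 members (0 at an unadjusted p under 0.05, and 0 with DESeq2), and 0% of all genes were called in either direction. EGF at 24 h raised 6 members and lowered 0, against 0.163% of all genes called higher and 0.0815% lower, and both agents raised 11 and lowered 0, against 1.70% and 1.20%. With only the compared groups in the fit, these 24 h counts were 0 for EGF and 2 for both agents, and with all 48 libraries the EGF count was 0. The joint 24 h count was 5 without joint replicate 4 and 7 without joint replicate 3. The comparisons at a given time share their control libraries and are therefore not independent.

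The median log2 change of the 36 members was 0.43 under AII, 0.18 under EGF and 0.48 under both at 6 h, and 0.07, 0.36 and 0.40 at 24 h, while the median over all tested genes lay between -0.03 and 0.00 in each. In the AII 6 h comparison every library lay above all controls for 20 members and below them for 3, compared with 4.88% and 2.64% of all genes. For EGF at 24 h the libraries lay above all controls for 11 members and below for 0, compared with 0.662% and 0.866% of all genes. In all, 24 members were called in at least 1 of the 6 comparisons and 12 in none. The matching share of all genes was not computed, and the joint 6 h comparison alone called 6.45% of them higher and 5.53% lower. The transporters SLC7A11 and SLC6A9 and the enzyme CTH were each called in 4, more than any other member.

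**Figure D1:**
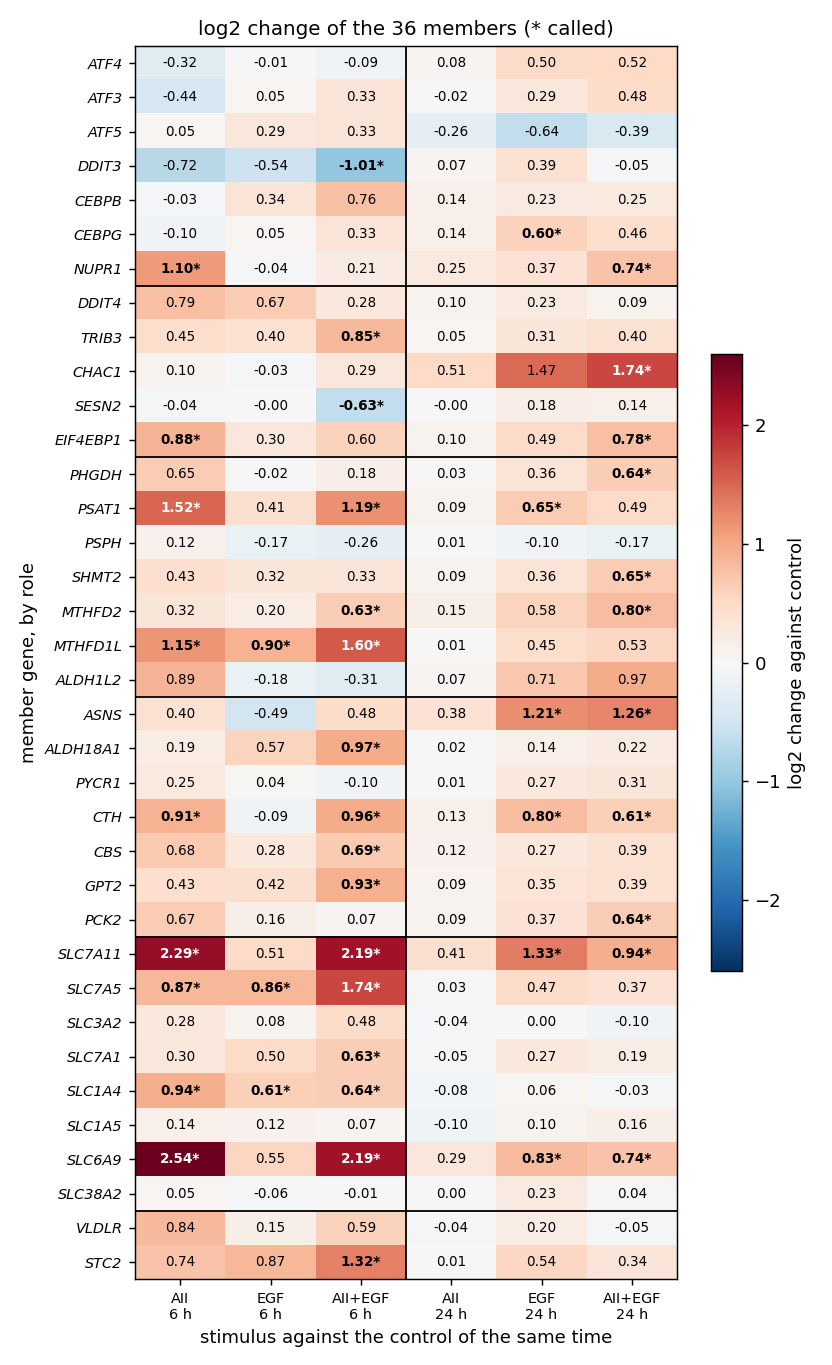
The log2 change of each of the 36 members (rows, grouped by role) against the control of the same time is shown for the 6 stimulus and time combinations (columns), red for higher and blue for lower, with an asterisk on called changes. SLC6A9 has the largest value, 2.54 under AII at 6 h, and the AII column at 24 h holds 0 called changes.

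Transporters bring amino acids into the cell. Of the 8 transporters, 4 rose under AII at 6 h, 2 under EGF and 5 under both, and their median log2 changes were 0.58, 0.50 and 0.63. Of all genes, 0.459%, 1.62% and 6.45% were called higher in the same comparisons. SLC6A9 encodes GlyT1, which takes up glycine. Its level in the 6 h controls was 3.56, 4.83, 2.85 and 3.02 CPM, and under AII it was 20.9, 21.5, 22.4, 21.7 and 17.5 CPM. All 5 AII libraries stood far above the controls. The 3 EGF libraries were at 4.61, 4.78 and 6.3 CPM and overlapped the controls. The joint libraries held 18.3, 17.3, 14.2 and 15.6 CPM, above every control and EGF library. The SLC6A9 change was 5.81-fold under AII (log2 2.54 ± 0.19 SE, adjusted p = 5.2e-12) and 4.58-fold under both (log2 2.19 ± 0.19, adjusted p = 1.3e-11), while EGF alone gave 1.46-fold, which was not called (adjusted p = 0.119).

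SLC7A11, or xCT, exchanges glutamate for cystine and so feeds glutathione synthesis. The 6 h controls had 6.12, 8.84, 7.74 and 10.3 CPM of SLC7A11. AII libraries had 49.3, 50.2, 35.1, 37.8 and 29.4 CPM, and joint libraries 39.2, 38.1, 41.3 and 32 CPM. Neither stimulated group reached down to the controls, and the 2 groups overlapped each other. The highest AII values, 49.3 and 50.2 CPM, came from a title run with no control or EGF library in use. With EGF the values were 12.4, 11.9 and 11 CPM, just above the highest control. SLC7A11 rose 4.87-fold under AII (log2 2.29 ± 0.27, adjusted p = 4.63e-07) and 4.55-fold under both (log2 2.19 ± 0.28, adjusted p = 5.11e-08). EGF gave a log2 change of 0.51 with an interval from -0.09 to 1.10 (adjusted p = 0.381).

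At 24 h the same 2 transporters passed the test again, now with EGF present and not with AII alone. SLC7A11 in the 24 h controls ranged from 5.32 to 14.8 CPM with a median of 10.1, and the AII libraries had 13.1, 12.9, 11.2, 12.4 and 18.2 CPM. The EGF libraries held 19.7, 15.8, 19.2, 30.4 and 42.8 CPM, all above the highest control. Joint libraries ran from 10.2 to 27 CPM with a median of 19.8 and overlapped the controls. The rise was 2.51-fold under EGF (adjusted p = 0.000883) and 1.92-fold under both (adjusted p = 0.0019). For SLC6A9 the 24 h controls ranged from 2.1 to 4.88 CPM and the EGF libraries were at 5.6, 6.09, 6.65, 6.27 and 9.08 CPM, without overlap. That was a 1.77-fold rise (log2 0.83 ± 0.16, adjusted p = 0.0031), and both agents gave 1.67-fold (adjusted p = 0.000736). The EGF call of SLC6A9 was lost without EGF 24 h replicate 4 and without replicate 6.

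**Figure D2:**
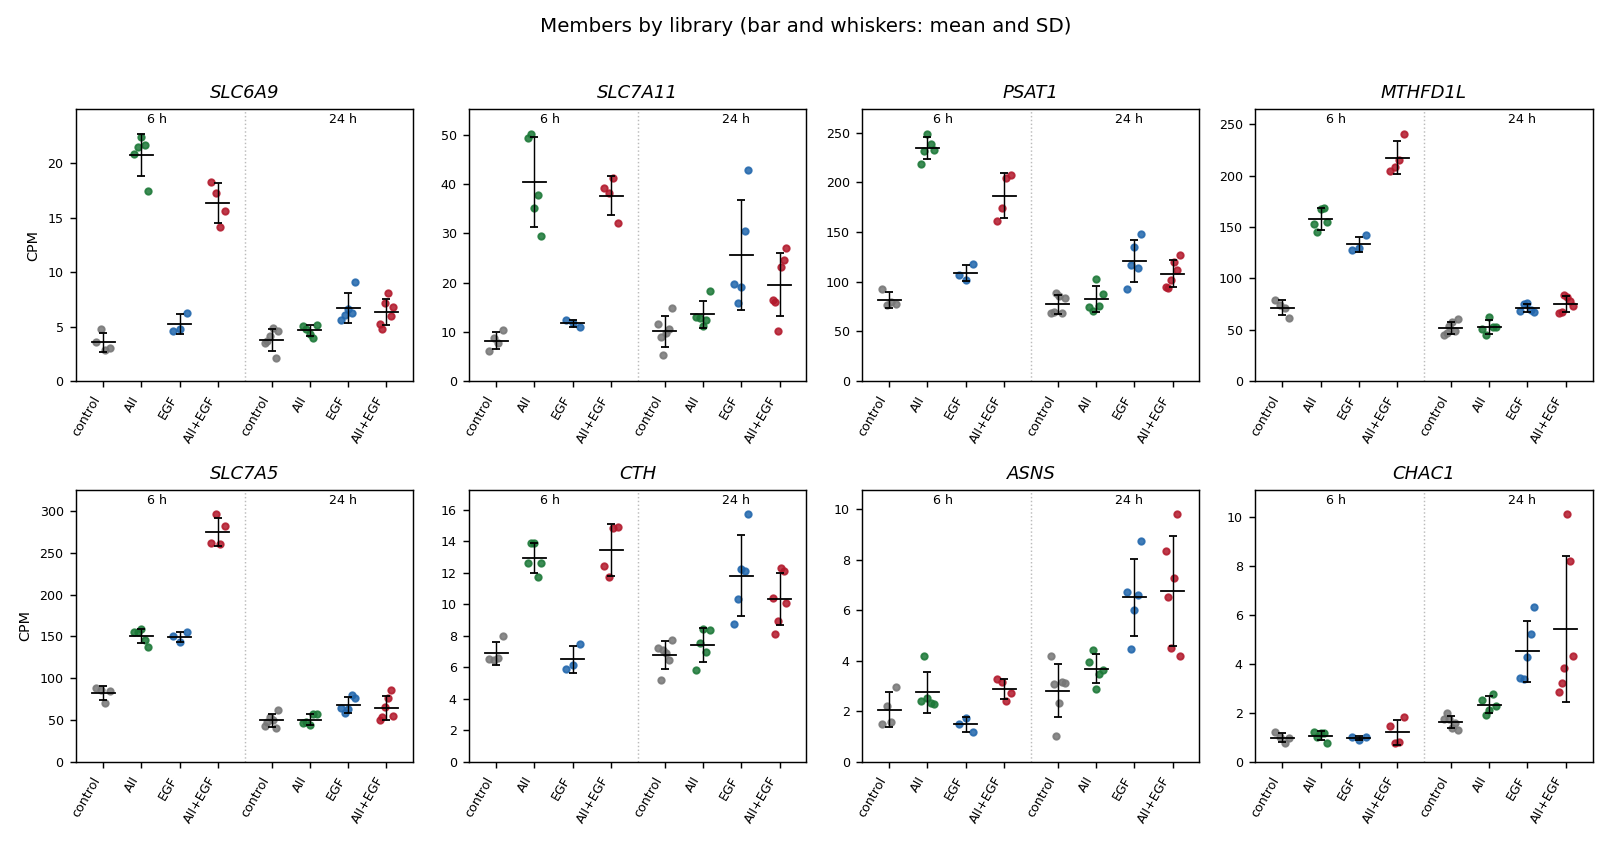
The level of 8 members is shown in CPM for every library used (points), with the group mean and SD (bar and whiskers), controls in grey, AII in green, EGF in blue and AII+EGF in red, 6 h on the left and 24 h on the right of each panel. SLC6A9, SLC7A11 and PSAT1 are high with AII at 6 h with or without EGF, SLC7A5 is highest in the joint libraries at 6 h, and CHAC1 and ASNS are high with EGF at 24 h.

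SLC7A5 is LAT1, the carrier of leucine and other large neutral amino acids. In the 6 h controls it was at 87.7, 86.4, 70.3 and 85.1 CPM. AII libraries were at 155, 155, 159, 146 and 137 CPM and EGF libraries at 151, 143 and 155 CPM, so that the agents given alone led to overlapping levels. With both agents SLC7A5 stood at 262, 296, 261 and 282 CPM, above every other library used. This separation depends on leaving out the 2 libraries with doubtful labels, for which SLC7A5 was the example printed above. It is therefore no independent support. The folds were 1.82 under AII (adjusted p = 4.56e-05), 1.82 under EGF (adjusted p = 6.4e-05) and 3.34 under both (log2 1.74 ± 0.14, adjusted p = 9.19e-13). SLC3A2, the heavy chain that carries SLC7A5 and SLC7A11 to the membrane, gave log2 values of 0.28, 0.08 and 0.48 in the same order, and did not pass in any.

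SLC1A4 (ASCT1) carries alanine, serine and cysteine. Its 6 h controls had 15.3, 16.5, 14.9 and 11.9 CPM. AII libraries were at 27.9, 28.8, 29, 26.2 and 28.8 CPM, EGF libraries at 21, 21.7 and 24.5 CPM and joint libraries at 23.7, 21.8, 22.1 and 23.6 CPM. Every stimulated library exceeded the controls, and the joint libraries lay below the AII libraries. The folds were 1.92 under AII (adjusted p = 1.87e-06), 1.53 under EGF (adjusted p = 0.00191) and 1.56 under both (adjusted p = 8.2e-05). The EGF and joint values sit close to the 1.5-fold limit: without control 6 h replicate 6 both fell under it, and the EGF call was also lost without EGF 6 h replicate 5.

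SLC7A1 (CAT1) carries arginine and lysine. It was at 243, 302, 263 and 250 CPM in the 6 h controls and at 420, 417, 387 and 410 CPM in the joint libraries, with no overlap. This was a 1.55-fold rise (adjusted p = 3.79e-06), which fell to a log2 change of 0.57 when the title runs, the number series in the library titles, were fitted as a block. AII gave 1.23-fold and EGF 1.42-fold for SLC7A1, neither called. SLC1A5, the glutamine carrier ASCT2, and SLC38A2, the carrier SNAT2, stayed between log2 -0.10 and 0.23 in all 6 comparisons and were not called, although both are standard ATF4 targets.

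Serine is made from a glycolytic intermediate by PHGDH, PSAT1 and PSPH, and SHMT2, MTHFD2, MTHFD1L and ALDH1L2 carry its carbon through mitochondrial folate. Of these 7 enzymes, 2 rose under AII at 6 h, 1 under EGF and 3 under both, and 0, 1 and 3 rose at 24 h. Of all genes, 0.459%, 1.62% and 6.45% were called higher at 6 h, and 0%, 0.163% and 1.70% at 24 h. PSAT1, the second enzyme of the serine branch, was at 93, 76.9, 79.2 and 77.5 CPM in the 6 h controls. With AII it was at 219, 232, 249, 239 and 233 CPM. The joint libraries had 161, 174, 204 and 207 CPM and the EGF libraries 107, 102 and 118 CPM. The groups were ordered AII, joint, EGF and control without overlap. PSAT1 rose 2.87-fold under AII (log2 1.52 ± 0.12, adjusted p = 5.77e-11) and 2.28-fold under both (log2 1.19 ± 0.13, adjusted p = 1.37e-09), and EGF gave 1.33-fold (adjusted p = 0.0584).

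At 24 h the PSAT1 controls ranged from 68.1 to 89.1 CPM. EGF libraries had 92.9, 117, 135, 114 and 148 CPM and lay above all of them, a 1.57-fold rise (adjusted p = 0.000635) that was lost without EGF 24 h replicate 6. The joint change, 1.40-fold, had an adjusted p of 0.000713 but did not reach the fold limit.

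MTHFD1L releases formate from mitochondrial folate. Its 6 h controls had 79.5, 74.2, 70.8 and 61.6 CPM. AII libraries had 153, 145, 168, 169 and 155 CPM, EGF libraries 128, 130 and 142 CPM, and joint libraries 205, 209, 215 and 241 CPM. The 4 groups did not overlap. MTHFD1L rose 2.21-fold under AII (adjusted p = 1.31e-10), 1.86-fold under EGF (adjusted p = 1.68e-07) and 3.04-fold under both (log2 1.60 ± 0.10, adjusted p = 2.86e-15), the smallest adjusted p of any member in the comparisons with control. At 24 h it was 1.36-fold higher with EGF and 1.44-fold higher with both (adjusted p = 0.00272 and 1.27e-05), under the fold limit.

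MTHFD2, the preceding dehydrogenase of the same route, rose under joint stimulation at both times. The 6 h controls had 192, 162, 189 and 137 CPM and the joint libraries 227, 258, 278 and 291 CPM, a 1.55-fold rise (adjusted p = 0.000149). It was lost without control 6 h replicate 6 or joint replicate 5, and the block by title runs put it at log2 0.56. At 24 h MTHFD2 ranged from 115 to 147 CPM in controls and from 196 to 264 CPM, median 220, in joint libraries. This 1.74-fold rise (log2 0.80 ± 0.10, adjusted p = 9.68e-07) held without any single library. EGF at 24 h, with 164, 216, 235, 172 and 194 CPM, gave a log2 change of 0.58 (adjusted p = 0.00223), just short of the fold limit. The joint response of MTHFD2 at 24 h minus 6 h was 0.17 ± 0.16 (adjusted p = 0.501).

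PHGDH, the first enzyme of the branch, was 1.57-fold higher under AII at 6 h with an adjusted p of 0.0101, at the edge of the threshold, and its AII libraries, 278 to 360 CPM, lay above the controls, 170 to 251 CPM. It passed with both agents at 24 h (1.56-fold, adjusted p = 0.000329), as did SHMT2, which splits serine into glycine and a folate-bound carbon (1.57-fold, adjusted p = 0.00257). PSPH, the last step to serine, stayed between log2 -0.26 and 0.12 and was not called. ALDH1L2 varied most among replicates, from 2.54 to 7.25 CPM in the 6 h controls, and its log2 changes ran from -0.31 ± 0.43 with both agents at 6 h to 0.97 ± 0.33 with both at 24 h (adjusted p = 0.0308).

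The other 7 enzymes make asparagine, proline, cysteine and alanine or feed phosphoenolpyruvate. Of these, 1 rose under AII at 6 h, 0 under EGF and 4 under both, and 0, 2 and 3 rose at 24 h. The shares of all genes called higher were 0.459%, 1.62% and 6.45% at 6 h, and 0%, 0.163% and 1.70% at 24 h. CTH, which releases cysteine from cystathionine, had 6.54, 6.47, 6.56 and 7.98 CPM in the 6 h controls. AII libraries had 12.6, 13.9, 13.9, 11.7 and 12.6 CPM and joint libraries 12.4, 11.7, 14.8 and 14.9 CPM, all above the controls, whereas the EGF libraries had 5.88, 6.11 and 7.48 CPM and overlapped them. CTH rose 1.88-fold under AII (adjusted p = 0.000143) and 1.95-fold under both (adjusted p = 3.74e-06), and its EGF value was log2 -0.09 with an adjusted p of 0.844.

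At 24 h the order of CTH was different. Controls ranged from 5.19 to 7.74 CPM with a median of 6.99, EGF libraries held 8.77, 10.3, 12.2, 12.1 and 15.7 CPM, and joint libraries ranged from 8.13 to 12.3 CPM with a median of 10.3. Neither group with EGF overlapped the controls, whereas AII libraries, at 5.84, 7.53, 8.42, 6.96 and 8.33 CPM, did. The rises were 1.75-fold with EGF (adjusted p = 0.000459) and 1.52-fold with both (adjusted p = 0.00048).

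ASNS makes asparagine and is a classic reporter of ATF4. It had few counts, and a pseudogene copy, ASNSP1, held 9.61% of the counts of the pair. At 6 h the ASNS means were under the 5 CPM that a call needs, so no comparison with control could be called. EGF libraries of that time were at 1.5, 1.75 and 1.18 CPM against 1.49, 2.19, 1.56 and 2.98 CPM in controls. At 24 h the controls ranged from 1.02 to 4.17 CPM with a median of 3.1. EGF libraries had 6.73, 4.48, 6.01, 6.62 and 8.73 CPM, above every control, and joint libraries ran from 4.17 to 9.8 CPM with a median of 6.9. ASNS rose 2.31-fold with EGF (log2 1.21 ± 0.24, adjusted p = 0.0031) and 2.39-fold with both (log2 1.26 ± 0.23, adjusted p = 0.000106). The EGF call was lost without EGF 24 h replicate 4 or 5.

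ALDH18A1, the first enzyme of proline synthesis, rose with both agents at 6 h. Controls had 185, 174, 168 and 155 CPM, AII libraries 182, 184, 206, 196 and 205 CPM, EGF libraries 249, 244 and 264 CPM, and joint libraries 321, 327, 329 and 357 CPM. The AII libraries overlapped the controls, and the EGF and joint libraries lay above both. The joint rise was 1.96-fold (log2 0.97 ± 0.09, adjusted p = 1.29e-10). EGF alone gave 1.48-fold, which missed the fold limit (adjusted p = 0.000141), and AII alone 1.14-fold (adjusted p = 0.361). Between the agents, EGF against AII gave log2 0.37 for ALDH18A1 (adjusted p = 0.0222), which was not called. PYCR1, the last enzyme of proline synthesis, was not called, with log2 values from -0.10 to 0.31.

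GPT2, mitochondrial alanine transaminase, was at 33.5, 33.9, 31.9 and 25.2 CPM in the 6 h controls and 61.3, 63.7, 51.5 and 61.4 CPM with both agents, a 1.91-fold rise (adjusted p = 1.7e-09). AII and EGF alone gave 1.35-fold and 1.34-fold for GPT2, under the fold limit. CBS makes cystathionine. Its 1.61-fold joint rise at 6 h (adjusted p = 0.00109) is uncertain, since a nearly identical copy, CBSL, held 50.3% of the counts of the pair and the call was lost without control 6 h replicate 5. PCK2, the mitochondrial source of phosphoenolpyruvate, was called in the joint 24 h comparison (1.56-fold, adjusted p = 0.00274), and 4 of its 12 leave-one-out fits lost the call. Under AII at 6 h PCK2 was at 31.8 to 41.7 CPM against 15.6 to 31.6 CPM in controls, without overlap, and its 1.59-fold value had an adjusted p of 0.045.

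Among the 7 regulators the changes were few, and ATF4 itself was not called against control. The ATF4 gene lies at chr22:39520559-39522686 (RefSeq, GRCh38.p14). Its messenger was at 370, 332, 318 and 348 CPM in the 6 h controls and at 235, 240, 287, 305 and 303 CPM under AII, so that all AII libraries lay below all controls (log2 -0.32 ± 0.12, adjusted p = 0.183). EGF libraries had 320, 334 and 364 CPM and joint libraries 311, 284, 297 and 393 CPM, which overlapped the controls. The AII group at 6 h thus had the lowest ATF4 messenger, without a call, while its SLC6A9, SLC7A11 and PSAT1 levels were the highest. The lowest AII libraries, at 235 and 240 CPM, came from a title run with no control or EGF library in use.

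At 24 h ATF4 ranged from 288 to 419 CPM in controls with a median of 331. EGF libraries had 454, 429, 498, 473 and 577 CPM and joint libraries ran from 431 to 561 CPM with a median of 491, without overlap in either case. These differences had adjusted p-values of 0.00654 and 0.000292 but were 1.41-fold and 1.43-fold, under the fold limit. CEBPG, a C/EBP protein that pairs with ATF4, had 113, 109, 123, 123 and 131 CPM with EGF at 24 h against 67.6 to 94 CPM in controls, a 1.52-fold rise (log2 0.60 ± 0.08, adjusted p = 4.79e-05). It was at the fold limit and was lost without control 24 h replicate 1 or 3 or EGF replicate 6.

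DDIT3 (CHOP) promotes cell death under lasting strain. It was not among the 16 called members with the smallest adjusted p, and its library values were chosen for print after they were seen. The 6 h controls had 6.86, 5.52, 5 and 5.52 CPM, AII libraries 3.32, 2.47, 4.44, 3.43 and 3.72 CPM, EGF libraries 4.23, 3.26 and 4.31 CPM, and joint libraries 2.39, 2.36, 3.32 and 3.3 CPM. Every stimulated library was below every control. The lowest AII values (3.32 and 2.47 CPM) and joint values (2.39 and 2.36 CPM) came from the same title run. That run had no control or EGF library in use. The joint change was called (log2 -1.01 ± 0.20, adjusted p = 0.00015), whereas the AII and EGF values, -0.72 ± 0.19 and -0.54 ± 0.21, were not (adjusted p = 0.0316 and 0.139). At 24 h DDIT3 gave log2 values of 0.07, 0.39 and -0.05, none called.

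ATF3, a stress factor induced by ATF4, was lower in every AII library at 6 h, 66 to 79.7 CPM, than in any control, 92 to 105 CPM, without a call (adjusted p = 0.159). NUPR1, a stress-response regulator, was 2.14-fold higher under AII at 6 h (adjusted p = 0.00451) and 1.67-fold higher with both agents at 24 h (adjusted p = 0.00455). The AII call of NUPR1 was fragile: 5 of 9 leave-one-out fits kept it, and with all 48 libraries it was lost. ATF5 had a log2 value of -0.64 with EGF at 24 h (adjusted p = 0.027) and CEBPB one of 0.76 with both at 6 h (adjusted p = 0.0178), and neither was called.

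**Figure D3:**
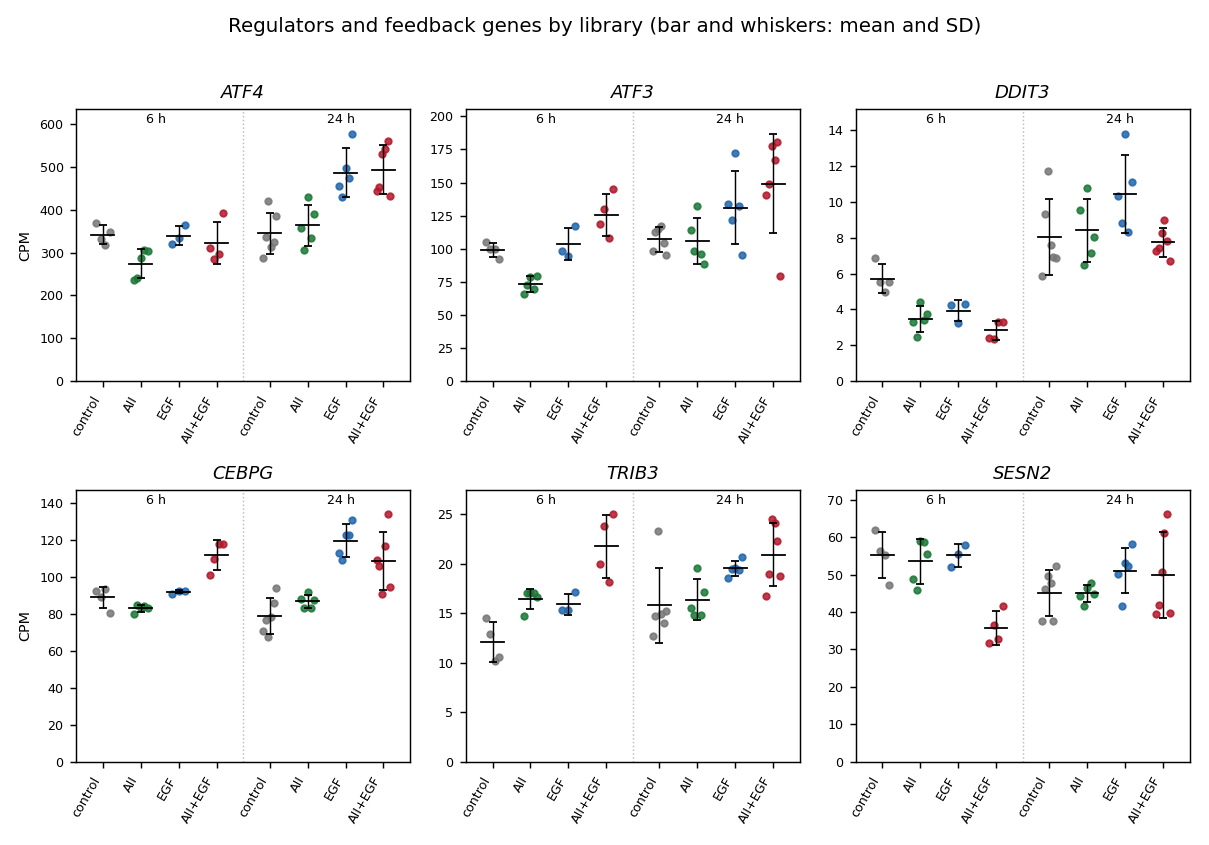
The level of 4 regulators (ATF4, ATF3, DDIT3, CEBPG) and 2 feedback genes (TRIB3, SESN2) is shown in CPM for every library used (points), with the group mean and SD (bar and whiskers), 6 h on the left and 24 h on the right. ATF4, ATF3 and DDIT3 lie below the controls in all AII libraries at 6 h, DDIT3 and SESN2 are low in the joint libraries at 6 h, and ATF4 lies above the controls with EGF at 24 h.

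The stress effectors and feedback genes act on growth, glutathione and ATF4 itself. CHAC1, which degrades glutathione, ran from 0.75 to 1.81 CPM over all 16 libraries at 6 h. It could not be called at that time, being under the 5 CPM limit. In the 24 h controls it was between 1.31 and 2.01 CPM with a median of 1.65, and under EGF it was at 3.41, 3.37, 4.26, 5.2 and 6.31 CPM. The joint libraries ranged from 2.85 to 10.1 CPM with a median of 4.06. Neither group with EGF overlapped the controls. CHAC1 rose 3.33-fold with both agents (log2 1.74 ± 0.24, adjusted p = 2.57e-06), the largest change of a member at 24 h. The call was lost without joint replicate 4 or 5, the libraries with the highest values, because the mean then fell under 5 CPM. With EGF alone the change was 2.78-fold (adjusted p = 0.000883) and was not called, since the mean of 4.51 CPM is under that limit. AII alone gave 1.90 to 2.78 CPM and a log2 value of 0.51 (unadjusted p = 0.0549).

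TRIB3 is a pseudokinase that feeds back on ATF4. It was at 14.5, 12.9, 10.2 and 10.6 CPM in the 6 h controls and at 20, 23.8, 18.2 and 25 CPM with both agents, a 1.81-fold rise without overlap (log2 0.85 ± 0.14, adjusted p = 1.09e-05). AII and EGF alone gave log2 values of 0.45 and 0.40 for TRIB3, not called. SESN2, a leucine sensor that restrains mTORC1, fell with both agents at 6 h, from 47.1 to 61.9 CPM in controls to 31.6 to 41.7 CPM (log2 -0.63 ± 0.14, adjusted p = 0.000411), and this was lost without joint replicate 1 or control 6 h replicate 3. AII and EGF alone gave -0.04 and -0.00. EIF4EBP1, which holds back cap-dependent translation, rose 1.84-fold under AII at 6 h (adjusted p = 0.00346), a call that 5 of 9 leave-one-out fits kept, and 1.71-fold with both at 24 h (adjusted p = 0.000343). DDIT4, a brake on mTORC1, gave 0.79 under AII and 0.67 under EGF at 6 h, neither called, and spread from 26.8 to 115 CPM in the 24 h controls.

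STC2 is a secreted glycoprotein induced by stress in the endoplasmic reticulum. Controls at 6 h had 38.1, 44, 31.5 and 27.3 CPM, and the joint libraries had 95.8, 95.2, 70.4 and 89.8 CPM, a 2.49-fold rise (log2 1.32 ± 0.21, adjusted p = 4.74e-06). AII libraries, 56.5, 60, 61.7, 54.9 and 60.8 CPM, and EGF libraries, 66.1, 65.6 and 60.8 CPM, also lay above all controls, but with adjusted p-values of 0.0412 and 0.0121 neither change was called. VLDLR, a lipoprotein receptor, was 1.79-fold higher under AII at 6 h without a call (adjusted p = 0.0181). Its AII libraries ran from 2.88 to 5.02 CPM, with a mean under the 5 CPM limit, so no rise could be called.

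A direct comparison of the agents asked which members separate EGF from AII at 6 h. Of the 36 members, 5 were lower with EGF than with AII and 0 were higher, against 0.204% of all genes called lower and 0.469% higher. The 5 were SLC6A9 (log2 -1.99 ± 0.20, adjusted p = 2.88e-08), SLC7A11 (-1.78 ± 0.29, adjusted p = 0.00012), PSAT1 (-1.11 ± 0.13, adjusted p = 1.03e-06), CTH (-0.99 ± 0.16, adjusted p = 0.000107) and NUPR1 (-1.14 ± 0.25, adjusted p = 0.00701). The NUPR1 difference was kept in only 2 of 8 leave-one-out fits. SLC7A5 and MTHFD1L, the other strong risers, were not called between the agents.

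**Figure D4:**
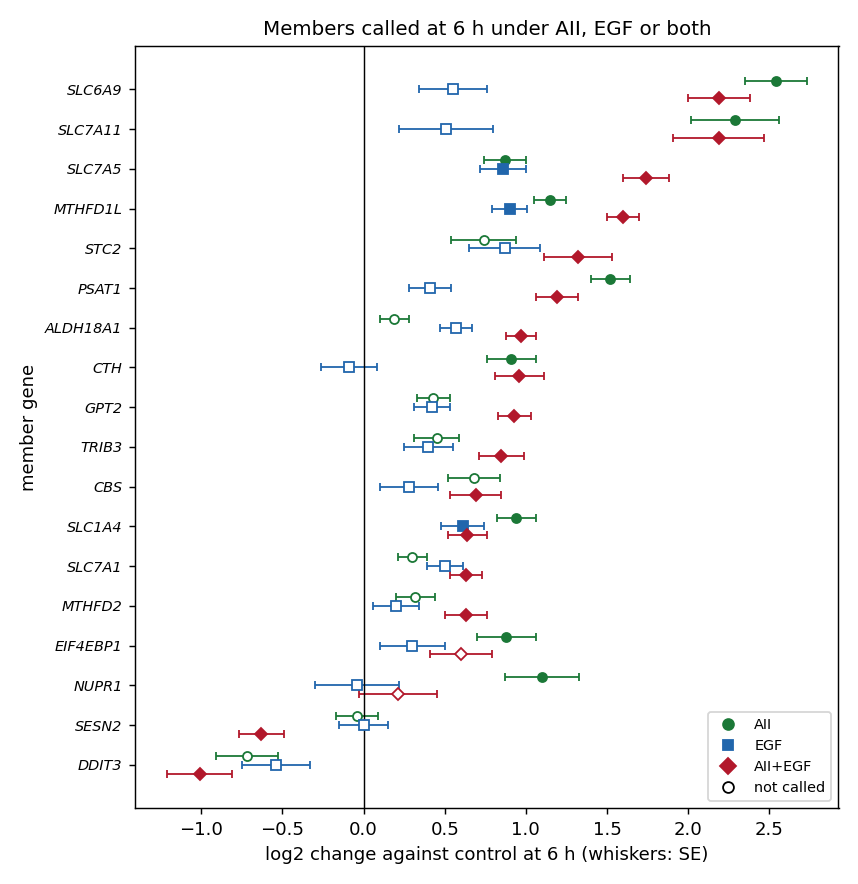
The log2 change against control at 6 h, with its SE, is shown for the 18 members called under AII (green circles), EGF (blue squares) or both (red diamonds), with open symbols where the change was not called. The AII and joint values of SLC6A9, SLC7A11, PSAT1 and CTH lie well to the right of the EGF values, whereas SLC7A5, MTHFD1L, ALDH18A1 and GPT2 are farthest right with both agents.

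The joint stimulus was then compared with each agent alone. Against EGF at 6 h, 7 members differed, 6 higher and 1 lower, and 1.62% of all genes were called higher and 1.31% lower. SLC6A9 (3.13-fold), SLC7A11 (3.20-fold), CTH (2.07-fold), SLC7A5 (1.84-fold), PSAT1 (1.71-fold) and MTHFD1L (1.63-fold) were higher with adjusted p-values from 4.33e-07 to 0.00014, and SESN2 was lower (log2 -0.63, adjusted p = 0.00356). Against AII at 6 h, 5 members differed, 3 higher and 2 lower, while 4.21% of all genes were called higher and 3.39% lower, so the share among members is not far from the background. The 3 were SLC7A5 (1.83-fold, adjusted p = 1.22e-06), ALDH18A1 (1.71-fold, adjusted p = 8.62e-09) and ATF3 (1.71-fold, adjusted p = 0.000176), and NUPR1 and SESN2 were lower (log2 -0.89 and -0.59). SLC6A9, SLC7A11 and CTH were not called between joint and AII stimulation. The count of 5 was 3 without AII replicate 3 or 4 or joint replicate 3, and 1 with all 48 libraries. With the 2 libraries of doubtful label kept and the near-identical pairs left out, no member was called. These calls therefore depend on leaving those 2 libraries out. The gaps between AII and joint libraries printed above for ALDH18A1, PSAT1, MTHFD1L and SLC1A4 were likewise seen without them.

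At 24 h the joint stimulus differed from AII in 4 members, all higher, against 0.856% of all genes called higher and 0.596% lower: MTHFD2 (1.57-fold), CHAC1 (2.33-fold), PHGDH (1.53-fold) and EIF4EBP1 (1.60-fold). The count was 1 without joint replicate 4, 2 without joint replicate 5 or AII replicate 2 or 6, and 7 without AII replicate 3 or joint replicate 6. Against EGF at 24 h it differed in 0 members (2 at an unadjusted p under 0.05, and 0 with DESeq2), where 0.0815% of all genes were called higher and 0.0102% lower.

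Departure from additivity on the log2 scale was tested as the interaction of the agents. At 6 h SLC1A4 was the only member called, with a negative interaction, against 0.138% of all genes called negative and 0.0917% positive. Its joint change was smaller than the sum of the single changes by 0.92 on the log2 scale (interaction -0.92 ± 0.18, interval -1.27 to -0.56, adjusted p = 0.00395). Leaving out 1 library lost this call in 8 of 16 fits: AII replicate 1 or 2, joint replicate 2 or 3, any of the 3 EGF libraries, or control replicate 6, with values from -0.98 to -0.81. The SLC1A4 call was also lost with the 2 libraries of doubtful label kept. PSAT1 gave -0.75 ± 0.18 (adjusted p = 0.0333) and SLC6A9 -0.89 ± 0.27 (adjusted p = 0.125), which were not called. For SLC7A5 the interaction was 0.01 ± 0.19, with an interval from -0.38 to 0.40 (adjusted p = 0.996), and its joint log2 change of 1.74 stands beside single changes of 0.87 and 0.86. At 24 h the interaction was called for 0 members (4 at an unadjusted p under 0.05, and 0 with DESeq2), with 0% of all genes called in either direction.

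Whether a response differed between the times was tested as the change at 24 h minus that at 6 h. For AII, 5 members had a lower value at 24 h and 0 a higher one, against 0.132% of all genes called lower and 0.00510% higher. They were SLC6A9 (-2.24 ± 0.25, adjusted p = 3.06e-07), SLC7A11 (-1.87 ± 0.35, adjusted p = 0.00351), PSAT1 (-1.43 ± 0.16, adjusted p = 4.69e-07), MTHFD1L (-1.13 ± 0.13, adjusted p = 4.69e-07) and SLC1A4 (-1.02 ± 0.16, adjusted p = 0.000301). For EGF, 0 members passed (13 at an unadjusted p under 0.05, 2 with DESeq2, and 6 with title runs as a block), against 0.255% of all genes called higher and 0.780% lower. CTH, CEBPG and ASNS came nearest, with differences of 0.89, 0.55 and 1.69 and adjusted p-values of 0.0108, 0.012 and 0.0125, and in each the EGF response was the larger at 24 h.

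With both agents 11 members differed between the times, 3 with a higher and 8 with a lower value at 24 h, where 5.50% of all genes were called higher and 6.08% lower. SLC6A9 (-1.46 ± 0.25), SLC7A5 (-1.37 ± 0.17), SLC7A11 (-1.24 ± 0.35), MTHFD1L (-1.07 ± 0.13), STC2 (-0.98 ± 0.27), ALDH18A1 (-0.75 ± 0.12), PSAT1 (-0.70 ± 0.16) and SLC1A4 (-0.67 ± 0.16) were lower, with adjusted p-values from 5.42e-08 to 0.00645. ATF4 (0.61 ± 0.16, adjusted p = 0.00397), SESN2 (0.77 ± 0.18, adjusted p = 0.00107) and DDIT3 (0.96 ± 0.25, adjusted p = 0.00434) were higher. The ATF4 and SLC7A11 differences were kept in 12 and 9 of 20 leave-one-out fits. Without joint 6 h replicate 2 the count was 7.

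Levels of members also differed between the times in unstimulated cells. Each title run holds libraries of 1 time alone, so time and run cannot be told apart here. Between 6 h and 24 h in serum-free medium 7 members differed, 5 higher and 2 lower, where 4.77% of all genes were called higher and 1.96% lower. The count was 2 with all 48 libraries and 3 with the near-identical pairs kept. VLDLR (2.97-fold), DDIT4 (2.33-fold), NUPR1 (2.06-fold), PCK2 (1.90-fold) and STC2 (1.72-fold) were higher at 24 h, and SLC7A5 (log2 -0.74 ± 0.12, adjusted p = 2e-05) and ATF5 (-0.90 ± 0.16, adjusted p = 7.97e-05) were lower. ATF4 was at 342 ± 22.1 CPM (SD, n = 4) at 6 h and 345 ± 48.5 CPM (n = 6) at 24 h.

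Other genes of the pathway were taken from 3 lists. The eIF2 pathway list holds 14 genes for the eIF2 kinases, the eIF2 subunits, the exchange factor eIF2B and the regulatory subunits of the eIF2 phosphatase. It had 1 call in the 6 comparisons, EIF2S1, the alpha subunit of eIF2, which rose 1.73-fold with both agents at 6 h (adjusted p = 3.02e-07). In that comparison 6.45% of all genes were called higher. The median log2 change of the list was between -0.05 and 0.10. Of 12 further ATF4 targets, 10 could be tested, and 3 rose with both agents at 6 h, against 6.45% of all genes: NIBAN1, a stress-induced survival factor (5.53-fold, adjusted p = 1.58e-14), VEGFA, an angiogenic factor (1.98-fold, adjusted p = 3.76e-07), and GADD45A, a growth arrest gene (1.55-fold, adjusted p = 0.00012). At 24 h with both agents 2 rose, NIBAN1 (1.87-fold) and LAMP3 (1.57-fold), against 1.70% of all genes. AII or EGF alone gave 0 called changes among the 10 at either time. The abundance limit of 5 CPM decided this for NIBAN1, which was higher by 1.07 on the log2 scale under AII at 6 h (adjusted p = 6.31e-05), 2.06-fold under EGF at 6 h (adjusted p = 9.52e-05) and 1.58-fold under EGF at 24 h (adjusted p = 0.00425), and for JDP2, a partner of AP-1 factors, which was 2.56-fold higher under AII at 6 h (adjusted p = 0.000211). Their means in those groups lay between 3.63 and 4.86 CPM. The median log2 change of the 10 was 0.17 under AII at 6 h and 0.39 under EGF at 6 h.

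The third list held 22 further enzymes and transporters of amino acids, all tested. AII at 6 h raised 2, BCAT1, the cytosolic branched-chain transaminase (1.77-fold, adjusted p = 4.29e-05), and SLC38A1, a glutamine carrier (1.58-fold, adjusted p = 0.000172). EGF at 6 h raised 1, SLC1A1, a carrier of glutamate and cysteine (2.47-fold, adjusted p = 3.01e-05). Of all genes, 0.459% were called higher under AII at 6 h and 1.62% under EGF. With both agents at 6 h, 5 rose and 1 fell, against 6.45% and 5.53% of all genes. Those that rose included SLC1A1 (5.93-fold), BCAT1 (2.48-fold), SLC38A1 (2.03-fold) and SLC7A6 (1.88-fold), and BCAT2, the mitochondrial branched-chain transaminase, was the 1 that fell (log2 -0.60, adjusted p = 0.000241). The median log2 change of the 22 was 0.04 under AII, 0.19 under EGF and 0.17 under both at 6 h. At 24 h 1 of them rose, BCAT1 with both agents (1.52-fold, adjusted p = 6.66e-05), where 1.70% of all genes were called higher.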

How the data were processed

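Polyadenylated RNA of 48 libraries of the AT1R-expressing HEK293 clone was analysed from the deposited table of raw counts per gene. The authors aligned reads to hg38 with HISAT2 (version 2.1.0, per the submitters' processing notes) and counted them with featureCounts. Strand setting and treatment of reads that map more than once are not given in the sources used here, so counts of near-identical copies or overlapping genes may be shared. The 36 members and all lists were chosen with earlier results of these data known.

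From the 38 libraries kept, a model with 8 groups and no covariates was fitted with edgeR 4.0.16 (R 4.3.3; filterByExpr, TMM scaling, glmQLFit and glmQLFTest), and p-values were adjusted by Benjamini-Hochberg over 19626 genes. A change was called at an adjusted p under 0.01, a fold of 1.5 or more and a mean over 5 CPM (the higher group for a rise, the reference for a fall, the largest group mean for differences between responses). CPM used TMM-scaled library sizes. SE and 95% intervals (from the t distribution) of log2 changes are from this fit. Scripts were tested on simulated data.

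Library values were printed for ATF4 and the 16 called members with the smallest adjusted p, and for pathway lists at most 4 called genes of a list were to be named; BCAT2, SLC7A6 and JDP2 were added after values were seen, and 1 gene of the third list is not reported here. Near-identical libraries were found by chi-square divided by its degrees of freedom, over those genes that reached 100 counts in the pair, with 0.397 to 0.505 in the 4 pairs, against 2.02 in the closest pair kept. Alternatives were DESeq2 1.42.0, library totals without scaling factors, no count filter, other call limits, other sets of libraries, title runs as a block, only the groups compared, and leaving out each library. Motif letters were searched in RefSeq windows of GRCh38.p14. Gene symbols were matched to RefSeq for positions.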

Additional observations from a re-analysis of the deposited data

Results flagged for a closer look

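In 10 of 119 combinations of a named member and a group of 4 or more libraries, 1 library lay apart from the others of its group by Dixon's 95% criterion; chance marks about 1 in 20 groups. Under AII at 6 h these were ASNS at 4.19 CPM in replicate 2, where the others reached at most 2.54, and TRIB3 at 14.7 CPM in replicate 1, where the others were at 16.6 or above. Under AII at 24 h, replicate 3 was high for ALDH18A1 (159 CPM, next 133) and MTHFD2 (195 CPM, next 137), and replicate 6 for SLC7A11 (18.2 CPM, next 13.1). Among the 6 h controls, PSAT1 stood at 93 CPM in replicate 3 (next 79.2), CTH at 7.98 CPM in replicate 6 (next 6.56), and SLC7A5 at 70.3 CPM in replicate 5 (next 85.1). Among the 24 h controls, TRIB3 was high at 23.3 CPM in replicate 3 (next 15.2) and STC2 low at 36.3 CPM in replicate 6 (next 60.6). Replicate 6 of AII and of joint stimulation at 24 h, from the same title run, also held the lowest STC2 of its group (34.3 and 41.7 CPM). The EGF library of that run, at 79.4 CPM, did not. A part of the title run was not tested.

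In 17 cases a tested difference between responses passed the call limits. The interaction of AII and EGF at 6 h passed for SLC1A4 (-0.92 on the log2 scale). The AII response at 24 h minus that at 6 h passed for SLC6A9 (-2.24), SLC7A11 (-1.87), PSAT1 (-1.43), MTHFD1L (-1.13) and SLC1A4 (-1.02). For both agents together the same difference passed for SLC6A9 (-1.46), SLC7A5 (-1.37), SLC7A11 (-1.24), MTHFD1L (-1.07), STC2 (-0.98), ALDH18A1 (-0.75), PSAT1 (-0.70) and SLC1A4 (-0.67), and with the opposite sign for DDIT3 (0.96), SESN2 (0.77) and ATF4 (0.61).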

How the results depend on the processing

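No member's change reversed its sign under any alternative while called. With only the compared groups in the fit, the counts of called members became 0 (EGF 24 h, main 6), 2 (both agents 24 h, main 11), 8 (both against AII 6 h, main 5), 1 (both against AII 24 h, main 4) and 4 (interaction 6 h, main 1). With all 48 libraries they became 0 (EGF 24 h), 4 (both against EGF 6 h, main 7), 1 (both against AII 6 h), 0 (interaction 6 h), 1 (EGF response 24 h minus 6 h, main 0) and 2 (control 24 h against 6 h, main 7). Keeping the 2 libraries with doubtful labels gave 1 (EGF 6 h, main 3), 4 (both against EGF 6 h), 0 (both against AII 6 h) and 0 (interaction 6 h), and keeping the near-identical pairs gave 3 (EGF 24 h), 2 (EGF response 24 h minus 6 h) and 3 (control 24 h against 6 h). Title runs as a block gave 3 (interaction 6 h) and 6 (EGF response 24 h minus 6 h), DESeq2 gave 2 and library totals without factors gave 3 for the last of these. No count filter gave 8 (both against AII 6 h), 0 (interaction 6 h) and 1 (EGF response 24 h minus 6 h). An adjusted p under 0.05 gave 14 (AII 6 h, main 9), 8 (both against AII 6 h), 2 (interaction 6 h) and 4 (EGF response 24 h minus 6 h), and no fold minimum gave 5 (EGF 6 h), 17 (both agents 24 h), 10 (both against AII 6 h) and 7 (both against AII 24 h). The cause was not tested, except that the last 2 settings call more by construction.

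Leaving out each library in turn gave 7 to 10 called members for AII 6 h, 2 to 4 for EGF 6 h, 15 to 16 for both at 6 h, 0 for AII 24 h, 4 to 7 for EGF 24 h, 5 to 12 for both at 24 h, 6 to 7 for both against EGF 6 h, 3 to 5 for both against AII 6 h, 0 for both against EGF 24 h, 1 to 7 for both against AII 24 h, 4 to 5 for EGF against AII, 0 to 1 for the interaction at 6 h and 0 at 24 h, 4 to 6 for the AII response, 0 to 2 for the EGF response and 7 to 12 for the joint response at 24 h minus 6 h, and 6 to 7 for control 24 h against 6 h. The EGF response count was 1 without control 24 h replicate 1 or 3, control 6 h replicate 6 or EGF 24 h replicate 1, and 2 without EGF 24 h replicate 3 or control 24 h replicate 6. The labels carry no replicate numbers to pair libraries by, and title runs served as the only block. CHAC1, ASNS and DDIT3, near 5 CPM, were limited by their counts.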
